A study of Homo sapiens with 18 samples.

Results

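The BCL2 family of cell death regulators was followed across knockdown of RBCK1, ANKRD35 or MITD1 in cells labelled 786-O. The 786-O line was established from a clear cell renal carcinoma. The 10 members of the family were given as a list of gene symbols. They are the anti-apoptotic genes BCL2L1, MCL1 and BCL2, the effectors BAX and BAK1, and the BH3-only genes PMAIP1, BBC3, BID, BCL2L11 and BAD. These are 10 of the 58735 genes listed for the RBCK1 and ANKRD35 experiments, and of the 29928 symbols listed for MITD1. RNA of cells grown in RPMI-1640 with serum was made into libraries with a strand-specific kit. The 18 libraries form 6 groups of 3. Cells labelled shRBCK1 have the control shcontrol, those labelled siANKRD35 the control sicontrol_for_siANKRD35, and those labelled siMITD1 the control sicontrol_for_siMITD1. The labels name no drug, time point or other allele for any group. The series title links the targeted genes to the response of this cancer to sunitinib. Neither the hairpin and siRNA sequences nor whether a group is a clone or a pool are given in the sources used here, and the knockdown columns for ANKRD35 are headed ShRNA although the sample titles say si.

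BCL2 family proteins decide whether the outer mitochondrial membrane stays intact. BAX and BAK1 form the pores that let cytochrome c out, the anti-apoptotic proteins hold them back, and the BH3-only proteins, produced or activated under stress, bind the anti-apoptotic proteins or the effectors and tip the balance towards death. Renal carcinoma cells are known to lean on BCL2L1 (BCL-XL) and MCL1 for survival, and RNA level is only part of the control, because MCL1 and PMAIP1 (NOXA) proteins are short-lived, BID is activated by cleavage and BAD by loss of phosphate.

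Values are FPKM (fragments per kilobase of gene, relative to library size). Each pair of groups has its own table, normalized separately, so tests stay within a table and levels set side by side across tables are descriptions. Read totals recovered from the FPKM values ran, per library, from 16346478 to 18648246 for RBCK1 and from 17502646 to 19034974 for ANKRD35. For MITD1 they ran from 13247748 to 14658879 over the genes whose reads could be recovered. RBCK1 was at 487, 492 and 462 FPKM in shcontrol and at 30.8, 32.0 and 32.9 in shRBCK1. The shcontrol level stands apart from RBCK1 in the ANKRD35 and MITD1 controls, at 70.8 and 65.5 FPKM. ANKRD35 was at 753, 687 and 742 FPKM in its control and at 0, 0 and 0.0332 in siANKRD35, and MITD1 was at 7.16, 7.42 and 7.83 FPKM in its control and at 2.43, 2.66 and 3.03 in siMITD1. The kidney lineage gene PAX8 was present in every group, at mean levels from 18.6 to 45.9 FPKM. Of the 8 renal carcinoma markers listed, 6 or 7 reached a mean of 1 FPKM in each group. CA9 did not, with group means of at most 0.416 FPKM. The 6 libraries of the ANKRD35 table stand apart here too: the renal cadherin CDH6 was at 0 in all of them and between group means of 13.5 and 28.6 FPKM in the other groups, and ANKRD35 itself, at 727 FPKM in that control, was at 0 or a mean of 0.0064 in the other controls. KRT18 was at 342 FPKM in the ANKRD35 control, against 103 in shcontrol and 64.7 in sicontrol_for_siMITD1. All libraries are labelled 786-O, and whether those of the ANKRD35 table come from the same cells as the others was not tested. Summed levels of fibroblast, endothelial and blood cell markers were at most 4.92, 0.55 and 0.968 FPKM in any library. The labels do not say whether replicates were separate cultures. All p-values therefore measure the spread between libraries alone, and that spread may be technical.

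Promoter sequence is shown for the members whose changes were the largest among the called ones, since these carry the results. RefSeq (GRCh38.p14) gave 15 start windows for 9 of the 10 members, all but MCL1, and the 250 bases before a start are printed 5′ to 3′ on the gene's strand. Capitals mark matches on either strand to 9 motifs: CRE (TGACGTCA), the CRE half-site TGACGT, which lies inside it and was added after the PMAIP1 sequence was seen, the ATF4-CEBP element (TGATGCAA), AP-1 (TGANTCA), NF-kB, IRF (both by name), E-box (CACGTG), STAT (TTCNNNGAA) and E2F (TTTNGCGC).
PMAIP1, chr18:59899746-59899995, plus strand: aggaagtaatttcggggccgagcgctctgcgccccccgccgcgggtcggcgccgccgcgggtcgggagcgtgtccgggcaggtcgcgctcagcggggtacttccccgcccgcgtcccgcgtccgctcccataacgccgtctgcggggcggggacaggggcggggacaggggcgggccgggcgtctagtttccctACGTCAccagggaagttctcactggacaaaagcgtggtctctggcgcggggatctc
BCL2L1, chr20:31723964-31724213, minus strand: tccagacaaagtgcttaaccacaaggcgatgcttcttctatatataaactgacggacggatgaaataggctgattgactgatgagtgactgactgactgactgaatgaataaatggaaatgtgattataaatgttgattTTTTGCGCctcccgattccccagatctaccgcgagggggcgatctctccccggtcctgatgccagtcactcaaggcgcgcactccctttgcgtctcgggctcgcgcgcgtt
BBC3, chr19:47232668-47232917, minus strand: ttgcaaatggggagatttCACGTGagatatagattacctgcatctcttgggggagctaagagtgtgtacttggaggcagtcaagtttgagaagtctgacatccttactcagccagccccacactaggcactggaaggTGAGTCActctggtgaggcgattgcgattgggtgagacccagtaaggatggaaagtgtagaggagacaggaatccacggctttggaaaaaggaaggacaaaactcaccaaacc
BAK1, chr6:33580277-33580526, minus strand: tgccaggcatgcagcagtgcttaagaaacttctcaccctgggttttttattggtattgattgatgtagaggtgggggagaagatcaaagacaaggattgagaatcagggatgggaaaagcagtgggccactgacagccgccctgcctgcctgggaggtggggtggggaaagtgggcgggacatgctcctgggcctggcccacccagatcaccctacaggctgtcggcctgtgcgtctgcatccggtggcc
BAX, chr19:48954625-48954874, plus strand: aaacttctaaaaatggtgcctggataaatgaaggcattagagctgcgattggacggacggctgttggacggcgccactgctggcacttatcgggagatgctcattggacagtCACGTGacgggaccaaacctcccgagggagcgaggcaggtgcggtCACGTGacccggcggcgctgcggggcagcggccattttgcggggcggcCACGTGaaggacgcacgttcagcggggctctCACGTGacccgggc
BAD, chr11:64284705-64284954, minus strand: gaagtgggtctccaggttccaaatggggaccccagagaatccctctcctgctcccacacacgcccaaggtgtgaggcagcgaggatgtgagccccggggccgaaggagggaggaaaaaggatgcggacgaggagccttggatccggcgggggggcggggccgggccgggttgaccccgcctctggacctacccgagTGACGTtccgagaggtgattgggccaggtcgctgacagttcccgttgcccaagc

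The PMAIP1 window holds a CRE half-site at −56, counting its first base back from −1 just before the start, and the BAD window holds the same letters at −54. Of 35116 promoter windows of this length, 7.1% hold that half-site. BAX has 4 E-boxes, at −138, −93, −45 and −14, where 6.34% of windows hold at least 1. BBC3 has an E-box at −232 and an AP-1 match at −113 (6.57% of windows), and the BCL2L1 window an E2F match at −111 (1.51%). For BCL2L1 and BAD, which have more than 1 window, the one farthest upstream is shown, chosen after the matches were seen. The other BCL2L1 window (chr20:31722869-31723118) holds none of the 9 motifs, and that of BAD overlaps the one shown. The BAK1 window holds none of the 9. The full CRE, ATF4-CEBP, NF-kB, IRF and STAT letters are in 1.65%, 0.772%, 1.73%, 3.02% and 6.57% of windows and in none of the 6 shown. The GC box (GGGCGG), which 42.6% of windows hold, was left in lower case; PMAIP1 has 4. These matches are letters, not shown sites, and the windows carry no measurement in this study.

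In shcontrol the members differed widely in level on the FPKM scale. PMAIP1 (116 ± 3.53, SD, n = 3 here and below) and MCL1 (98.9 ± 1.26) led, followed by BCL2L1 (46.5 ± 2.14), BAK1 (36.1 ± 0.315), BAX (21.5 ± 1.13), BID (14.8 ± 0.598) and BAD (11.0 ± 0.614). BBC3 (2.52 ± 0.384) and BCL2L11 (2.46 ± 0.113) did not differ beyond their spread, and BCL2, the founding member, was last at 0.605 ± 0.0896. In sicontrol_for_siANKRD35, MCL1 (98.9 ± 0.811) and PMAIP1 (96.3 ± 2.07) lay within their spread of each other and BAX stood higher in the order, at 58.9 ± 2.44. BBC3 was at 11.8 ± 0.99 there. In sicontrol_for_siMITD1, MCL1 led alone at 66.8 ± 2.18, and BAK1 (35.3 ± 1.19) and PMAIP1 (33.3 ± 0.578) came next. BCL2 was the lowest member in each control group, at 1.19 ± 0.127 and 0.897 ± 0.052 FPKM in the ANKRD35 and MITD1 controls.

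**Figure D1:**
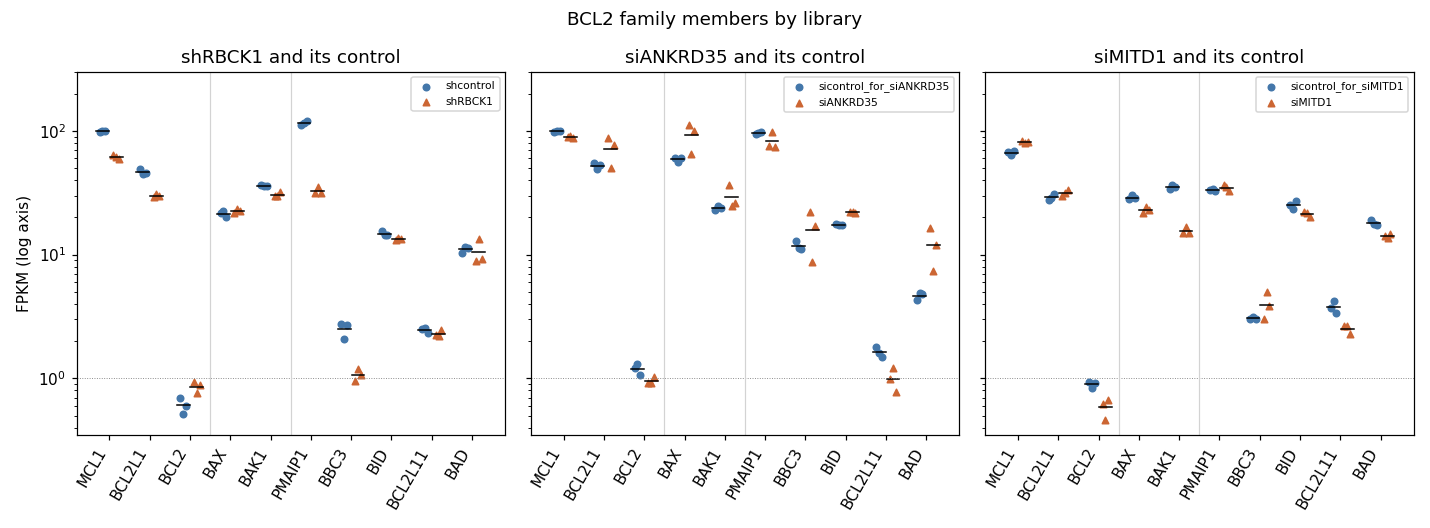
FPKM of the 10 members in each library on a log axis, grouped as anti-apoptotic, effector and BH3-only, with control libraries as circles, knockdown libraries as triangles and the group mean as a bar. The dotted line is 1 FPKM. PMAIP1 drops from between 112 and 119 to between 31.6 and 35.2 in shRBCK1, BAK1 drops in siMITD1, and siANKRD35 replicates spread widely for BAX, BBC3 and BAD.

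Knockdown of RBCK1, which encodes the HOIL-1 subunit of the linear ubiquitin ligase, was accompanied by lower RNA of both pro-death and pro-survival members. PMAIP1 fell most, followed by BBC3, MCL1 and BCL2L1. Of the 9 members tested (those reaching 1 FPKM in 3 or more of the 6 libraries, which left out BCL2), 6 fell, 0 rose and 3 did not pass the test, at an adjusted p under 0.05 in limma fitted across all 12227 tested genes. Over all tested genes 49.1% were called, 24.1% higher and 24.9% lower. With voom on the recovered reads the split of calls was 4191 higher and 2673 lower, against 2951 and 3049 here, and 5 members were lower and 0 higher. The libraries of both groups did not overlap for 6 members, all lower in shRBCK1, and for 59% of all tested genes (29.4% higher, 29.6% lower). The median log2 change was −0.24 over the members and 0.00544 over all tested genes. Changes are differences of knockdown from control in log2(FPKM + 1), a scale on which low genes change less than their FPKM does. In these bulk libraries, fewer cells carrying an RNA and less of it per cell cannot be told apart.

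Among the BH3-only genes, PMAIP1 encodes NOXA, which binds MCL1. It was at 112, 117 and 119 FPKM in shcontrol and at 31.7, 35.2 and 31.6 in shRBCK1. The groups lie far apart. It fell by 71.7%, or 3.53-fold (log2 change −1.79, SE 0.048, limma adjusted p = 1.56e-07), and rests on 12973 reads in the control and 3963 in the knockdown group. BBC3 encodes PUMA, a strong activator of cell death. It was at 2.77, 2.08 and 2.71 FPKM in shcontrol and 0.951, 1.19 and 1.06 in shRBCK1, without overlap. It fell by 57.6% (log2 change −0.76, SE 0.099, limma adjusted p = 0.000661) on 402 and 183 reads. BID, which caspase-8 cleaves to link death receptors to mitochondria, was at 15.5, 14.4 and 14.5 FPKM in shcontrol and 13.2, 13.7 and 13.5 in shRBCK1. Its small fall (log2 change −0.13, SE 0.04, limma adjusted p = 0.0299) is at the edge of the call. Leaving out shcontrol replicate 1 or 3, or shRBCK1 replicate 1 or 3, gave adjusted p = 0.092, 0.0518, 0.072 and 0.0686, and correction for gene length and GC content gave −0.04 (adjusted p = 0.434). BCL2L11 (BIM), a binder of all anti-apoptotic members, was at 2.49, 2.56 and 2.34 FPKM in shcontrol and 2.26, 2.19 and 2.44 in shRBCK1, overlapping, and missed the call (log2 change −0.07, SE 0.062, limma adjusted p = 0.372). BAD, which binds BCL2L1 and BCL2, was at 10.4, 11.6 and 11.2 FPKM in shcontrol and 8.95, 13.3 and 9.22 in shRBCK1. shRBCK1 replicate 2 lies above all 3 controls and the other knockdown libraries below them. The change was −0.09 (SE 0.131, limma adjusted p = 0.602), and without shRBCK1 replicate 2 it was −0.26 (adjusted p = 0.0115).

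Of the anti-apoptotic genes, MCL1 was at 97.5, 99.3 and 99.97 FPKM in shcontrol and 63.8, 61.1 and 59.2 in shRBCK1. The groups are separate, and MCL1 fell by 38.0% (log2 change −0.68, SE 0.035, limma adjusted p = 6.87e-06). BCL2L1 was at 48.8, 44.6 and 46.1 FPKM in shcontrol and 29.4, 31.0 and 29.5 in shRBCK1, again separate. It fell by 35.5% (log2 change −0.61, SE 0.042, limma adjusted p = 2.79e-05). BCL2, under the minimum, was at 0.698, 0.519 and 0.598 FPKM in shcontrol and 0.935, 0.764 and 0.877 in shRBCK1 (357 and 549 reads). With no minimum its change was 0.21 (SE 0.0937, limma adjusted p = 0.222).

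Of the effectors, BAK1, which sits on the outer mitochondrial membrane in healthy cells, was at 36.5, 36.0 and 35.9 FPKM in shcontrol and 29.8, 29.6 and 31.9 in shRBCK1. It fell by 15.7% (log2 change −0.24, SE 0.037, limma adjusted p = 0.00146). BAX, which moves to mitochondria from the cytosol, was at 21.6, 22.5 and 20.3 FPKM and 21.6, 23.2 and 22.6 FPKM, with overlapping groups (log2 change 0.06, SE 0.047, limma adjusted p = 0.299). After quantile normalization or correction for length and GC content its change was 0.13 (adjusted p = 0.0447 and 0.0279).

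Summed over the 10 members, FPKM was 350.5 ± 2.24 in shcontrol and 205.2 ± 5.14 in shRBCK1. PMAIP1 alone made up 33.1 ± 0.808% of the sum in shcontrol and 16 ± 0.576% in shRBCK1. The BH3-only share was 41.9 ± 0.698% and 29.3 ± 1.52%, the effector share 16.4 ± 0.449% and 25.8 ± 1.04%, and the anti-apoptotic share 41.7 ± 0.478% and 44.9 ± 1.33%. MCL1 RNA was 0.853 ± 0.0154 times PMAIP1 RNA in shcontrol and 1.87 ± 0.137 times in shRBCK1. These sums and ratios are descriptions and were not tested.

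**Figure D2:**
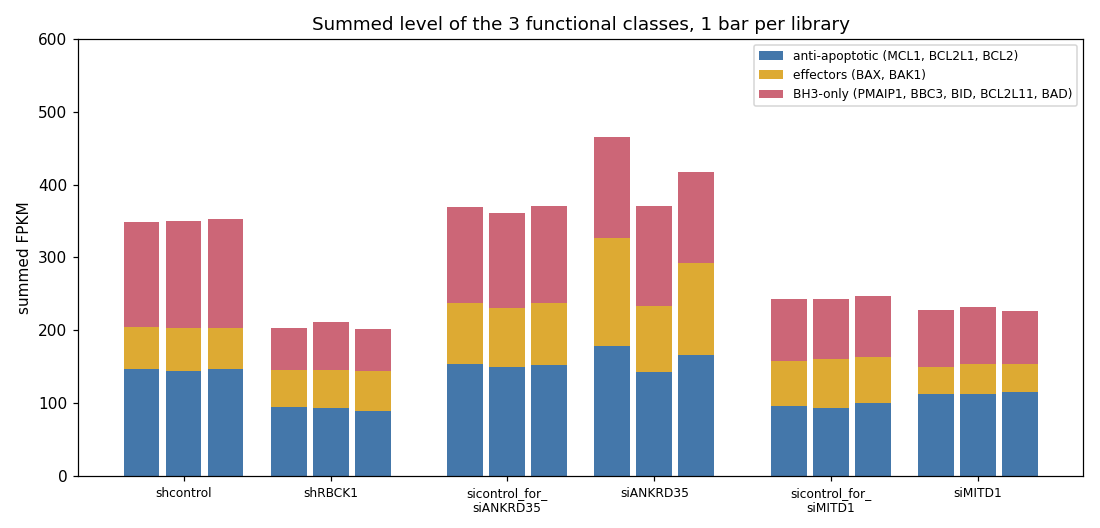
Summed FPKM of the anti-apoptotic, effector and BH3-only members in each of the 18 libraries, stacked on an axis that starts at 0. The shRBCK1 bars reach 202 to 211 FPKM where shcontrol reaches 348 to 353, the siMITD1 bars have a thinner effector layer than their control, and the siANKRD35 bars range from 370.3 to 464.8 FPKM.

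The other genes of the pathway in shRBCK1 were read from lists of related function. No list was tested, and over all tested genes 24.1% were called higher and 24.9% lower. Of 9 other BCL2 family genes tested, 3 rose and 2 fell. BCL2A1, an anti-apoptotic NF-kB target, fell from 3.51 ± 0.861 to 0.683 ± 0.114 FPKM (log2 change −1.41), while the BH3-only gene BMF rose from 1.36 ± 0.172 to 3.83 ± 0.0974 (log2 change 1.04). BCL2L13 fell (−0.53) and the mitophagy receptor BNIP3L rose (0.28). Of 12 transcription factors known to act on family genes 8 fell and 1 rose (median −0.49). The stress factors ATF3 and DDIT3 (CHOP) fell from 28.4 ± 0.324 to 1.82 ± 0.271 and from 21.0 ± 0.952 to 6.74 ± 0.488 FPKM, with log2 changes of −3.39 and −1.51. MYC fell from 83.1 ± 1.78 to 35.6 ± 1.9 FPKM and IRF1 from 12.3 ± 0.649 to 5.31 ± 0.0563. Of 6 caspase inhibitors 3 fell and 1 rose: BIRC3, BIRC2 (both cIAPs) and CFLAR (FLIP) fell by 1.24, 0.76 and 0.46 on the log2 scale, and BIRC5 (survivin) rose by 0.27. Downstream of the pore, 4 of 8 mitochondrial factors and channels rose and 1 fell, with OPA1 and CYCS (cytochrome c) at 0.38. Of 10 apoptosome and caspase genes 3 rose and 1 fell, and of 14 genes of protein turnover and phosphorylation 6 rose and 2 fell. Each of these named genes passed limma at an adjusted p of at most 0.000639.

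Likeness to PMAIP1, the member with the largest change, was measured as Pearson's r of control-centred log2(FPKM + 1) over all 18 libraries among 5283 genes. Of the 5 closest, 4 were IFI44 (0.995), DTX3L (0.99), OAS3 (0.988) and PARP12 (0.986). Among members MCL1 was closest (0.93), then BCL2L1 (0.678), and BID, BAD, BAK1 and BAX lay between 0.196 and −0.172. The 3 shRBCK1 libraries carry most of this spread, so these values mainly restate the fall there. In that comparison IFI44 was at 142 and 24.2 FPKM in control and knockdown, against 8.03 and 6.92 in the ANKRD35 table and 18.7 and 21.7 in the MITD1 table. PMAIP1 in shRBCK1 (32.8 FPKM) was near its 33.3 FPKM in sicontrol_for_siMITD1, while shcontrol and sicontrol_for_siANKRD35 were higher, at 116 and 96.3 FPKM. The high RBCK1 level of shcontrol moves with these falls, and its part in them was not tested.

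In siANKRD35 the members split: BAD, BAX and BID rose and BCL2L11 fell, while the replicates disagreed about several others. ANKRD35 encodes an ankyrin repeat protein. All 10 members were tested; 3 rose, 1 fell and 6 did not pass, where over all 11890 tested genes 36.3% were called, 19.4% higher and 16.9% lower. The median log2 change was 0.29 over the members and 0.0325 over all tested genes. With voom on the recovered reads the split was 1747 higher and 2724 lower over all genes, against 2305 and 2007 here, and 3 and 4 among members; after quantile normalization it was 1675 and 2036 over all genes and 1 and 2 among members. Groups did not overlap for 4 members higher and 3 lower in siANKRD35, and for 52.2% of all tested genes (28.1% higher, 24.1% lower). BAD was called in each of the 16 alternatives (highest adjusted p = 0.0486). The calls of BAX, BID and BCL2L11 were each lost when some single libraries were left out. All 3 were also lost after quantile normalization (limma adjusted p = 0.126, 0.0685 and 0.0629), where MCL1 (0.00912) and PMAIP1 (0.0355) passed as lower. BAX (0.122) and BCL2L11 (0.092) lost their calls with no minimum. Without siANKRD35 replicate 2, 8 members were called (5 higher, 3 lower) among 6536 genes. Without siANKRD35 replicate 1 or 3, or control replicate 1, 2 or 3, 2, 2, 2, 1 and 1 members were called, among 4148, 2825, 2324, 2267 and 2358 genes.

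BAD rose most. It was at 4.27, 4.85 and 4.81 FPKM in the control and at 16.5, 7.37 and 11.9 in siANKRD35. All knockdown libraries lie above all controls, but they differ among themselves more than the controls do. The means differed 2.57-fold (log2 change 1.13, SE 0.245, limma adjusted p = 0.0125; 441 and 1062 reads). BID was tight, at 17.8, 17.4 and 17.2 FPKM in the control and 22.3, 21.98 and 21.8 in siANKRD35, and rose (log2 change 0.32, SE 0.063, limma adjusted p = 0.00947). Without control replicate 2 or 3 its adjusted p was 0.0562 and 0.0559. BCL2L11 was at 1.78, 1.6 and 1.5 FPKM in the control and 0.995, 1.21 and 0.771 in siANKRD35. These groups do not overlap, and it fell by 0.40 on the log2 scale (SE 0.109, limma adjusted p = 0.0273). Without siANKRD35 replicate 1 or 3, or control replicate 1, 2 or 3, its adjusted p was 0.0534, 0.0803, 0.0998, 0.0819 and 0.065. PMAIP1 was at 94.8, 95.4 and 98.7 FPKM in the control and 75.7, 98.1 and 74.0 in siANKRD35; replicate 2 alone lies among the controls (log2 change −0.23, SE 0.115, limma adjusted p = 0.156). BBC3 was at 12.9, 11.3 and 11.2 FPKM in the control and 22.2, 8.74 and 16.9 in siANKRD35, with replicate 2 below every control and the others above (log2 change 0.32, SE 0.291, limma adjusted p = 0.423).

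Of the effectors, BAX was at 60.5, 56.1 and 60.2 FPKM in the control and 112, 65.5 and 99.9 in siANKRD35. The groups are separate and the means differed 1.57-fold (log2 change 0.61, SE 0.188, limma adjusted p = 0.0422). Without siANKRD35 replicate 1 or 3, or control replicate 1, 2 or 3, its adjusted p was 0.0897, 0.127, 0.101, 0.124 and 0.103. BAK1 was at 22.8, 24.5 and 23.8 FPKM and at 36.4, 24.7 and 25.9 FPKM, with replicate 1 alone well above the controls (log2 change 0.26, SE 0.144, limma adjusted p = 0.197). The anti-apoptotic BCL2L1 was at 55.2, 49.0 and 52.7 FPKM in the control and 87.4, 50.3 and 77.6 in siANKRD35 (log2 change 0.41, SE 0.193, limma adjusted p = 0.135). MCL1 was at 98.0, 99.5 and 99.3 FPKM and 89.9, 91.6 and 88.1 FPKM, separate but not passing (log2 change −0.14, SE 0.061, limma adjusted p = 0.119). BCL2 was at 1.21, 1.31 and 1.06 FPKM and 0.924, 0.917 and 1.03 FPKM, without overlap (log2 change −0.16, SE 0.089, limma adjusted p = 0.192).

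The spread among siANKRD35 replicates varied with base composition. Across 11885 genes, Spearman's rho between GC content and a library's deviation from its group was 0.672, −0.726 and 0.436 for replicates 1, 2 and 3. The 5 members with at least 55% GC in their longest transcript are BCL2L1 (56.9%), BAK1 (58.8%), BAX (58.9%), BAD (66.3%) and BBC3 (69.7%), and replicate 2 was the lowest of the 3 knockdown libraries in 5 of these 5. Of the 5 members under 55%, PMAIP1 (37.2%), MCL1 (45.1%), BCL2 (45.6%), BCL2L11 (45.7%) and BID (49.7%), replicate 2 was the highest in 3 and the lowest in 1. The log2 change itself had a rho of −0.413 with gene length and −0.00314 with GC content. After a correction for length and GC content, BAD (0.94, limma adjusted p = 0.00271), BAX (0.45, 0.0161), BID (0.26, 0.00329) and BCL2L11 (−0.31, 0.036) kept their calls. PMAIP1 (−0.54, 0.000603) and MCL1 (−0.22, 0.00921) then passed as lower. Without replicate 2, BCL2L1 (0.65, 0.000897) and BBC3 (0.67, 0.00438) passed as higher and PMAIP1 (−0.36, 0.00113) and MCL1 (−0.15, 0.0217) as lower. Without replicate 1 the changes of BCL2L1 (0.25, adjusted p = 0.31), BBC3 (0.048, 0.9) and BAK1 (0.091, 0.367) were smaller and did not pass. Deviations of replicates 1, 2 and 3 from their group had rhos with GC content of −0.356, 0.0875 and 0.327 in shRBCK1. In siMITD1 these were 0.0447, 0.146 and −0.195. What part base composition has in the member changes was not tested beyond the fits given.

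**Figure D3:**
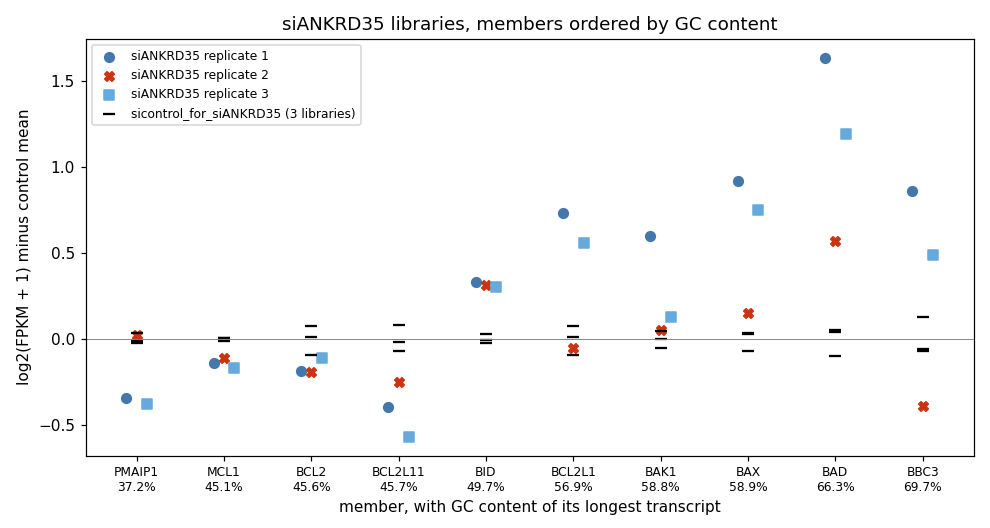
Difference in log2(FPKM + 1) of each siANKRD35 library from the control mean for the 10 members, ordered along the horizontal axis by the GC percent of the longest transcript, with a marker per replicate and dashes for the control libraries. Replicate 2 lies lowest of the 3 in all 5 members at or above 55% GC, and PMAIP1, at 37.2% GC, is the member where it stands highest above the other replicates.

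Among related genes in siANKRD35, 4 of 9 other BCL2 family genes rose and 0 fell. Over all tested genes 19.4% were called higher and 16.9% lower there, and no list was tested. The mitophagy receptors BNIP3 and BNIP3L rose from 22.9 ± 0.378 to 38.5 ± 0.662 and from 15.3 ± 0.501 to 22.8 ± 2.01 FPKM, and BCL2L12 and BCL2A1 rose by 0.54 and 0.42 on the log2 scale. Of 8 mitochondrial factors and channels 6 rose and 0 fell, ENDOG by 0.81, VDAC3 by 0.62, HTRA2 by 0.45 and CYCS by 0.41. Of 11 transcription factors 5 fell and 1 rose. ATF3 fell from 252 ± 2.24 to 70.4 ± 6.19 FPKM (log2 change −1.83), FOXO3 fell by 0.65, and the cell cycle factor E2F1 rose by 0.49. The ubiquitin ligase HUWE1 (MULE), which marks MCL1 for destruction, fell from 8.38 ± 0.173 to 3.86 ± 0.133 FPKM, and of 14 turnover and phosphorylation genes 5 fell and 1 rose. Caspase inhibitors (2 lower and 1 higher of 6) and the apoptosome with caspases (2 lower and 1 higher of 10) included APAF1, lower by a log2 change of −0.44, and BIRC5, higher by 0.42. Each named gene passed limma at an adjusted p of at most 0.0385.

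In siMITD1 both effectors fell and MCL1 rose. MITD1 encodes a protein that works with ESCRT-III in the last step of cell division. Of 9 members tested 5 fell, 1 rose and 3 did not pass, where over all 10415 tested genes 65.6% were called, 30% higher and 35.6% lower. The median log2 change was −0.22 over the members and −0.03 over all tested genes. After correction for length and GC content 3 members were higher and 4 lower, among 3360 genes higher and 3399 lower, against 3124 and 3711 without it. Groups did not overlap for 1 member higher and 5 lower, and for 70.4% of all tested genes (32.5% higher, 37.9% lower).

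BAK1 was at 34.0, 36.4 and 35.3 FPKM in sicontrol_for_siMITD1 and 14.8, 16.6 and 15.0 in siMITD1. Every knockdown library is below every control by a wide margin. It fell by 56.2%, or 2.28-fold (log2 change −1.14, SE 0.048, limma adjusted p = 3.36e-07; 3425 and 1573 reads). BAX was at 28.0, 30.2 and 28.5 FPKM in the control and 21.7, 24.3 and 22.7 in siMITD1. It fell by 20.6%, without overlap (log2 change −0.32, SE 0.048, limma adjusted p = 0.000393).

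MCL1 was at 68.0, 64.3 and 68.2 FPKM in the control and 83.0, 80.3 and 81.8 in siMITD1. The groups are separate, and the rise was 22.2% (log2 change 0.29, SE 0.031, limma adjusted p = 6.16e-05), with a limit on MCL1 reads in this table given with the shared exons. BCL2L1 was at 27.5, 28.6 and 30.8 FPKM and 29.6, 31.6 and 33.1 FPKM, overlapping (log2 change 0.11, SE 0.052, limma adjusted p = 0.0875). It passed as higher without control replicate 3 (adjusted p = 0.0328), without siMITD1 replicate 1 (0.0334) and after correction for length and GC content (0.21, adjusted p = 0.00902). BCL2, under the minimum, was at 0.941, 0.84 and 0.909 FPKM in the control and 0.616, 0.464 and 0.673 in siMITD1 (462 and 316 reads). With no minimum its change was −0.26 (SE 0.0653, limma adjusted p = 0.0224).

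Of the BH3-only genes, BCL2L11 was at 3.7, 4.22 and 3.36 FPKM in the control and 2.65, 2.63 and 2.28 in siMITD1, and fell by 33.0% (log2 change −0.43, SE 0.08, limma adjusted p = 0.00143). BAD was at 18.9, 17.8 and 17.3 FPKM and 14.3, 13.8 and 14.7 FPKM and fell (log2 change −0.32, SE 0.044, limma adjusted p = 0.000256), which after correction for length and GC content was −0.13 (adjusted p = 0.0712). BID was at 25.0, 23.2 and 27.2 FPKM and 22.2, 21.8 and 20.1 FPKM and fell (log2 change −0.22, SE 0.06, limma adjusted p = 0.0109). In each of these 3 genes the groups are separate. BBC3 was at 3.02, 3.13 and 3.01 FPKM in the control and 3.01, 4.97 and 3.86 in siMITD1, where replicate 1 lies with the controls (log2 change 0.27, SE 0.125, limma adjusted p = 0.0871). Without that library the change was 0.41 (adjusted p = 0.00592), without replicate 2 it was 0.12 (adjusted p = 0.262), and after correction for length and GC content 0.52 (adjusted p = 0.00296). PMAIP1, the member that fell most in shRBCK1, was at 33.4, 33.9 and 32.7 FPKM and 36.3, 35.5 and 32.4 FPKM, overlapping (log2 change 0.06, SE 0.044, limma adjusted p = 0.278). Without siMITD1 replicate 3 its change was 0.11 (adjusted p = 0.0299).

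**Figure D4:**
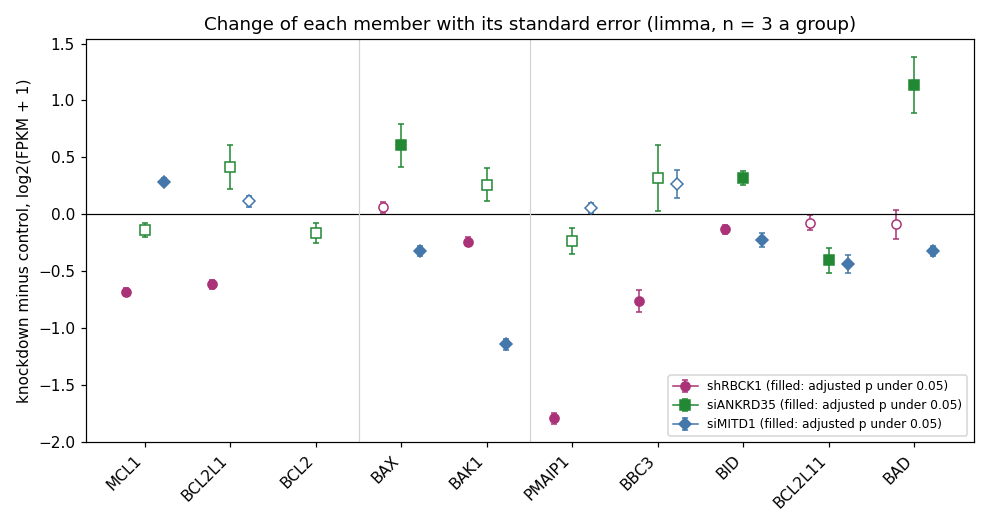
Log2 change of each member on the log2(FPKM + 1) scale in the 3 comparisons, with bars of 1 SE, filled markers where the limma adjusted p is under 0.05 and open markers where it is not; BCL2 was tested in siANKRD35 only. PMAIP1 (−1.79) in shRBCK1, BAK1 (−1.14) in siMITD1 and BAD (1.13) in siANKRD35 lie farthest from 0. Whether a member's change differs between comparisons was not tested.

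Effector RNA summed to 64.1 ± 2.3 FPKM in the MITD1 control and 38.4 ± 2.26 in siMITD1, and anti-apoptotic RNA to 96.7 ± 3.07 and 114 ± 1.64. As shares of the 10-member sum (244.1 ± 2.78 and 228.9 ± 2.81 FPKM), effectors were 26.3 ± 1.02% and 16.8 ± 0.815% and anti-apoptotic genes 39.6 ± 0.877% and 49.7 ± 1.28%. The BH3-only share was 34.1 ± 0.467% and 33.6 ± 1.07%. In the ANKRD35 table the effector share was 22.5 ± 0.166% in the control and 28.8 ± 4.0% in siANKRD35, where replicate 2 was at 24.3%.

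Around the members in siMITD1, 5 of 10 other BCL2 family genes rose and 3 fell. Over all tested genes 30% were called higher and 35.6% lower there, and no list was tested. BCL2L2 (BCL-W), an anti-apoptotic relative, rose from 6.62 ± 0.242 to 13.5 ± 0.719 FPKM (log2 change 0.93); its reads may be shared with the readthrough gene BCL2L2-PABPN1. BIK, BCL2L12 and BMF fell by 0.63, 0.48 and 0.32 on the log2 scale. Of 11 transcription factors 6 rose and 3 fell. DDIT3, ATF3 and ATF4 of the integrated stress response rose, from 6.32 ± 0.695 to 23.0 ± 1.07, from 2.82 ± 0.0954 to 7.1 ± 0.583 and from 202 ± 4.29 to 273 ± 2.82 FPKM, and IRF1 fell by 0.55. The initiator caspase CASP9 fell from 5.17 ± 0.28 to 3.35 ± 0.424, among 10 apoptosome and caspase genes with 3 higher and 3 lower. CYCS and OPA1 rose by 0.57 and 0.51, with AIFM1 and ENDOG lower, and 3 of 8 in that list rose and 4 fell. BIRC3 fell from 9.48 ± 0.545 to 4.91 ± 0.0657 FPKM while BIRC2 and BIRC5 rose (2 higher and 1 lower of 6 caspase inhibitors). Of 13 turnover and phosphorylation genes 7 fell and 3 rose, among them CDC20, which fell by 0.47. Each named gene passed limma at an adjusted p of at most 0.0128.

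Some members share exon bases with other genes, and the strand used in counting is not given in the sources used here, so reads from both cannot be told apart. All positions are on GRCh38. BCL2L1 (ENSG00000171552, chr20:31664452-31723989, minus strand) shares 1424 of its 3314 exon bases with ABALON on the opposite strand, which was at or below 2.66 FPKM as a group mean. BAD (ENSG00000002330, chr11:64269830-64284704, minus strand) shares 23.7% of its exon bases with GPR137. GPR137 was at 5.3 and 5.89 FPKM in the ANKRD35 control and knockdown and 12.3 in both RBCK1 groups. In the MITD1 table it was at 12.9, 13.5 and 13.9 FPKM in the control and 11.8, 10.8 and 11.8 in siMITD1, lower without overlap where BAD fell, and its part in that fall was not tested. BCL2L11 (ENSG00000153094, chr2:111119378-111168447, plus strand) shares 10.9% with MIR4435-2HG, which was at 5.71 and 8.22 FPKM in the MITD1 control and knockdown, where BCL2L11 fell. BAK1 (ENSG00000030110, chr6:33572547-33580293, minus strand) shares 4.11% with GGNBP1 and BBC3 (ENSG00000105327, chr19:47220822-47232766, minus strand) 2.52% and 2.39% with MIR3190 and MIR3191, both at 0 FPKM in the RBCK1 and ANKRD35 tables. MCL1 (ENSG00000143384, chr1:150574551-150579738, minus strand) shares 2 bases with ADAMTSL4-AS1. That gene was at 0.281 and 0.643 FPKM in the RBCK1 and ANKRD35 controls and at 111 in the MITD1 control, with a ratio to MCL1 of 1.67 in all 6 libraries of the MITD1 table. ADAMTSL4-AS1 rose there with MCL1, at 111 and 136 FPKM in the MITD1 control and knockdown. The values of both genes moved together in that table, so the MCL1 rise is not a separate observation from that of ADAMTSL4-AS1. Whether reads of MCL1 were assigned to ADAMTSL4-AS1 there was not tested. The other members are PMAIP1 (ENSG00000141682, chr18:59899948-59904306, plus strand), BAX (ENSG00000087088, chr19:48954815-48961798, plus strand), BID (ENSG00000015475, chr22:17734138-17774770, minus strand) and BCL2 (ENSG00000171791, chr18:63123346-63320128, minus strand). All 10 are protein-coding in GENCODE 29. For the members that share exon bases with other genes, the gene lengths listed with the FPKM values equal their merged exon bases.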

How the data were processed

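RNA-seq of cells labelled 786-O was measured in 18 libraries, grouped and numbered by their titles. The authors deposited FPKM values in 3 tables, each normalized separately, and these were used as deposited. Per the submitters' processing notes the build was mm10, a mouse build, whereas the RBCK1 and ANKRD35 values are listed with human Ensembl identifiers and positions. For the 10 members, the positions listed with RBCK1 equal those of GENCODE 29 on GRCh38, and other genes were not compared. The MITD1 values are listed by symbol only, and identifiers and positions were taken over from RBCK1 by symbol. The aligner, the counter and its strand are not given in the sources used here. Of the value columns for ANKRD35, 6 name no sample and were not used.

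Whole reads were recovered as FPKM times gene length over a step per library (tolerance 0.01 reads): 100% of values came out whole for RBCK1 and ANKRD35. The MITD1 table lists no lengths, and lengths of the RBCK1 table made 92.1 to 92.3% of values whole, so its read totals cover those genes only. Recovered reads served to give depth and in an alternative fit with voom. The design allowed for counts, but the tables hold FPKM. Each comparison was therefore fitted with limma-trend (limma 3.58.1, R 4.3.3) on log2(FPKM + 1) over the 6 libraries of its table, for genes reaching 1 FPKM in 3 or more of them, two-sided, with Benjamini-Hochberg adjustment over all tested genes and no replicate block. The fit was also run on simulated counts with planted changes. Those counts held no trend with GC content or gene length, so they do not cover the spread seen among siANKRD35 replicates. The members and gene lists were chosen with earlier results of these data known, so lists are described by counts and medians and no list was tested. The naming rule took the 10 members, the 3 targeted genes, up to 4 called genes of each related list with the largest change, and the 5 genes most like the member with the largest change among those whose mean reaches 5 FPKM in each table. Promoter windows came from RefSeq. Alternatives were other pseudocounts, minimums and scalings, a correction for gene length and GC content, a replicate block, voom, and leaving out each library. Some genes that the naming rule covers are not reported here.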

Additional observations from a re-analysis of the deposited data

How the results depend on the processing

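Direction and call of the member changes were recomputed under 16 alternatives. In the RBCK1 comparison 124 of 142 recomputed member changes kept direction and call, 11 lost the call, 4 gained it and 3 changed sign; in ANKRD35 these were 125 of 158, 17, 14 and 2, and in MITD1 129 of 142, 1, 12 and 0. The changes of sign were all in changes that did not pass the test. BAD in shRBCK1 was 0.041 on the log2 scale after correction for length and GC content, with or without the replicate block, and from −0.26 to 0.00438 with each library left out. BCL2 in siANKRD35 was 0.078 after that correction, with or without the block. The number of ANKRD35 members called was 2 with no minimum, where 3053 of 27910 tested genes were called. It was 7 with the replicate block and the length and GC correction together (4753 of 11885 genes) and 7 with voom (4471 of 11890). With each library left out it was 1 to 8, when 2267 to 6536 of 11890 genes were called. In the other comparisons leaving out a library gave 5 to 7 members and 4952 to 5471 genes for RBCK1, and 6 to 8 members and 6324 to 6432 genes for MITD1. The labels do not say whether the replicate numbers pair the libraries. Deviations of same-numbered libraries correlated at −0.00681, 0.00759 and 0.0284 for RBCK1 and 0.179, 0.114 and −0.0874 for ANKRD35. For MITD1 they correlated at 0.105, 0.0323 and −0.000858. Not every library correlated best with its own number. Because the deviations of the 3 libraries in a group sum to 0, these values cannot settle whether libraries were paired. With the replicate block 5347, 4139 and 6859 genes and 5, 4 and 7 members were called. Low reads limit BBC3, BCL2 and BCL2L11, though BBC3 had 2081 reads in the ANKRD35 control. BAD had only 441 reads in that control, and its rise there is limited likewise. The 3 libraries a group limit every p-value. The cause of these shifts was not tested.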
